A study of Mus musculus with 9 samples.

Results

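Ventral midbrain GABAergic neurons with high Tcf7l2 counts, with Otx2, Lmo1 or Kctd4 and without Foxa2 were described here. They were chosen by these gene counts among cells sorted for tdTomato from VGAT-Cre:Ai14:Pitx3-GFP mice. A well was a member with at least 3 Tcf7l2 counts, a sum of Otx2, Lmo1 and Kctd4 of at least 3 and 0 Foxa2 counts, after rounding. In all, 62 of 1460 kept wells of the VGAT plates met this rule (4.25%), out of 2035 kept wells in the series.

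Each cell was profiled in its own well by SORT-seq, in which CEL-seq2 chemistry tags mRNA molecules at their 3′ end in sorted wells. Of the 7 VGAT plates, 4 held E16.5 cells and 3 held P0.5 cells, stages that the sample labels call E16 and P0. All groups carry the same alleles: VGAT-Cre removes a stop cassette in Ai14, so that cells which have at any time expressed Slc32a1 keep tdTomato, and Pitx3-GFP marks dopamine neurons. Cells were sorted as live single tdTomato+ cells from dissected tissue of several brains and litters at each stage. No source used here ties a plate to animals, so p-values measure the spread between plates, which may be technical. Each well name holds 2 labels of its plate, and these disagree on the stage of VGAT E16.5 replicates 3 and 4 and P0.5 replicates 1 and 3. The label that matches the sample titles was used, and every value by stage rests on it. The other label also ends in letters that no source used here explains and that do not follow the sort of the first, so the split between tdTomato+ plates and plates of cells positive for both reporters rests on the first label too. The 2 plates of cells positive for both tdTomato and GFP held 575 kept wells, of which 0 met the rule (95% exact binomial limit 0.639%).

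Tcf7l2 is a high-mobility-group transcription factor that binds beta-catenin in the Wnt pathway, and in the developing brain it is best known from the thalamus and other caudal forebrain territories. Otx2 is a homeodomain factor of the forebrain and midbrain, Lmo1 is a LIM-only protein that joins DNA-binding partners without binding DNA itself, and Kctd4 belongs to a family of BTB-domain proteins. Foxa2 is a forkhead factor of the floor plate and its descendants, including dopamine neurons. GABAergic neurons of the midbrain commonly arise under Gata2, Gata3 and Tal1, and Six3 and Pax5 mark different groups of them in the substantia nigra pars reticulata.

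The members carried the GABAergic machinery. Gad1, which makes GABA, was found in 62 of 62 members, Gad2 in 60 and Slc32a1, the vesicular GABA transporter, in 51. Slc17a6, a vesicular glutamate transporter, was found in 1 member, Th, the rate-limiting enzyme of dopamine synthesis, in 1 and Pitx3 in 0. Of the other dopamine neuron markers, Slc6a3 was found in 1 member and Aldh1a1 in 0. Slc18a2 was found in 5 members, at 1 count each (8.06%, against 3.29% of other wells), and Nr4a2 in 3 (4.84% against 9.37%). Mki67 and Top2a of dividing cells were at 0 of 62 members, as were Pdgfra and Sox10 of the oligodendrocyte lineage, Cldn5 and Flt1 of endothelium and C1qa of microglia. A count of 0 in 62 allows up to 4.84% of cells with a count when 3 cells are taken as the limit. Other markers of these lineages were found in a few members, Olig2 in 2, Olig1 in 1, Cx3cr1 in 3, and Csf1r, C1qb and Pecam1 in 1 each. Of glial markers, Sox9 was found in 9 members (14.5%, against 10.0% of other wells), Hes5 in 5 (8.06% against 2.36%), Slc1a3 and Fabp7 in 2 each and Aqp4 in 1. Aldoc was found in 35.5% of members and 35.1% of other wells.

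Of the label's own markers, Tcf7l2, Otx2, Lmo1 and Kctd4 entered the rule, and their levels are given as a description with no test. Tcf7l2 lay between 3 and 219 counts per member with a median of 48.5, so most members were far above the limit. Just inside the limits lay 1 member at 3 Tcf7l2 counts and 8 at a sum of 3. Just outside lay 12 wells with 2 Tcf7l2 counts and 17 with a sum of 2, and 10 further wells were left out by Foxa2, at 2 to 15 counts. Otx2 was found in 49 members, Lmo1 in 50 and Kctd4 in 36. All 3 of these genes occurred together in 25 members, Otx2 with Lmo1 alone in 15, and the remaining 22 held other combinations.

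Summed per plate, Tcf7l2 was at 2163, 2480, 3258 and 5124 CPM (counts scaled to one library total on every plate) in members of E16.5 replicates 1 to 4 and at 2866 and 3330 in P0.5 replicates 2 and 3. The other kept wells of the same plates lay between 126 and 505 CPM. Otx2 was at 290.3, 183, 318, 276, 284 and 249 CPM in members, in the same order of plates, and Lmo1 at 322, 379, 445, 406, 255 and 376. Both were even across plates, whereas Kctd4 differed more, at 35.8, 122, 127, 83.2, 199 and 335 CPM. The P0.5 replicate 1 plate held 1 member and was left out wherever plates were compared, since at least 5 members were required.

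**Figure D1:**
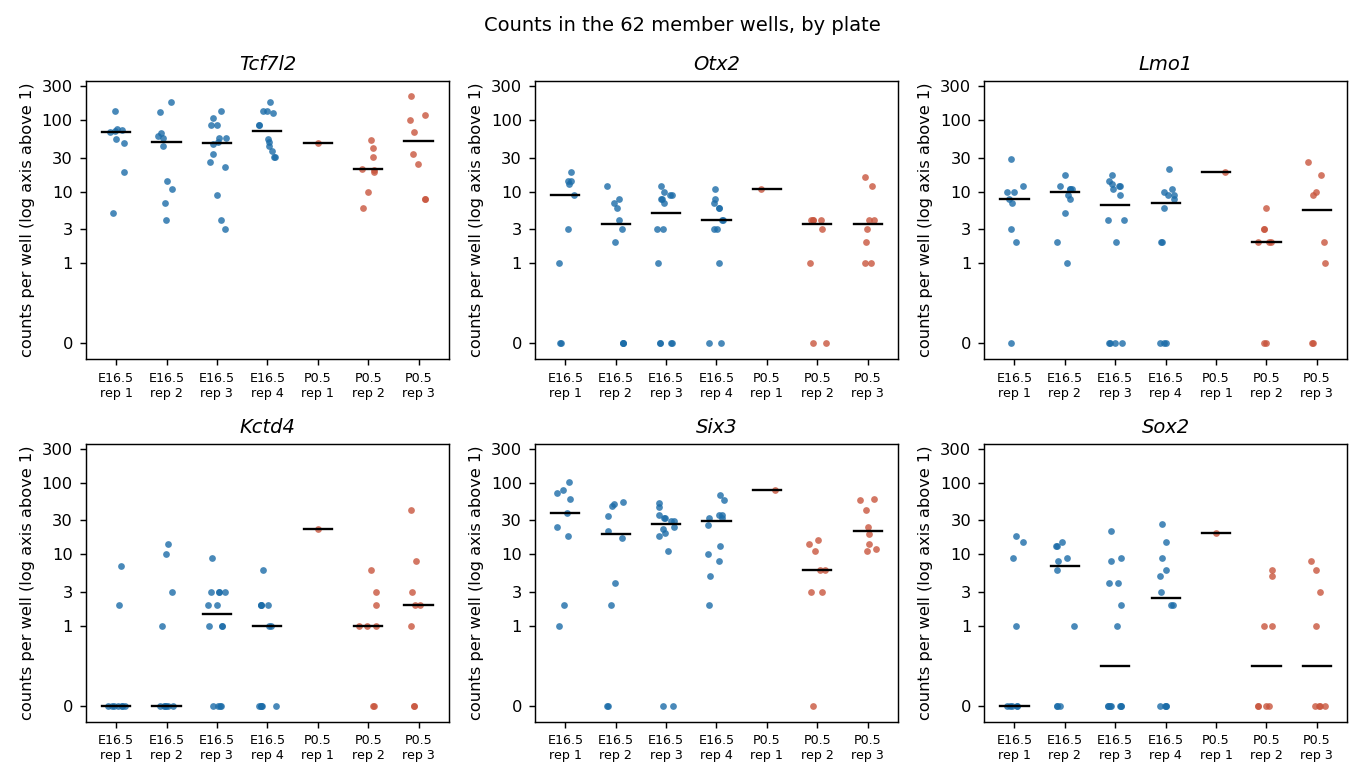
Counts of 6 genes in each of the 62 member wells (vertical axis, counts per well, log scale above 1) by plate (horizontal axis; E16.5 blue, P0.5 red), with a line at each median. Tcf7l2 lies between 3 and 219 counts, Otx2, Lmo1 and Kctd4 are lower with many wells at 0, and Six3, which the rule did not use, is at 1 or more counts in 57 wells.

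The other 2 label markers were left out of the tests as well. Sox2, an SRY-box factor of progenitors that some neurons keep, was at 171, 283, 222 and 359 CPM at E16.5 and 184 and 104 CPM at P0.5, above the other wells of all 6 plates (41.5 to 68.2 CPM). It was found in 35 of 62 members. Nr2f2, a nuclear receptor also called COUP-TFII, was found in more members (48 of 62, 77.4%) than other wells (51.1%). Its level did not follow, at 167, 253, 372, 146, 199 and 191 CPM in members against 379, 379, 310.5, 234, 155 and 268 CPM in the other wells, so the label's Nr2f2 did not hold for level. After thinning to 4000 counts, Nr2f2 was found in 48.3% of members, 32.1% of all other wells and 51.6% of the other wells with at least 3 Tcf7l2 counts, where it was thus no rarer than in members.

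The share of members did not pass a test between the stages. Members made up 9 of 190, 10 of 228, 14 of 303 and 12 of 305 wells on the E16.5 plates and 1 of 44, 8 of 219 and 8 of 171 on the P0.5 plates. The mean share was 4.42% ± 0.355 (SD, n = 4) at E16.5 and 3.53% ± 1.21 (SD, n = 3) at P0.5. The difference of -0.885 percentage points did not pass a two-sided exact permutation test over plates (p = 0.257, smallest p the design allows 0.0286). Without P0.5 replicate 1, which had the fewest kept wells, the difference was -0.254 points, without P0.5 replicate 3 it was -1.46 (exact permutation p = 0.0667, the smallest that this design allows), in wells of at least 8000 counts -1.52 (exact permutation p = 0.0857) and without the Foxa2 criterion -1.77. Members had a median of 17197 counts and other wells 16352, and 0 members but 80 other wells exceeded 2 times the median count of their plate.

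Genes outside the rule were compared between members and the other kept wells of the same plate. Counts of 61 members on 6 plates were summed per plate and tested against the sums of the other wells with edgeR (quasi-likelihood, plate as a block, adjustment over all genes). Of 10039 genes tested, 424 passed an adjusted p of 0.05 (4.22%), 105 higher in members (1.05%) and 319 lower (3.18%). The median log2 fold change over all genes was -0.10, and 0.01 with RLE in place of TMM scaling, which gave 142 higher and 221 lower genes. DESeq2 gave 128 higher and 176 lower. The rule and the gene lists used below were drawn up with earlier results of these cells known, so that the calls are not independent evidence for a cell type.

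Of the genes that passed, the largest rise in members was that of Prrxl1, a paired-like homeodomain factor best known from sensory neurons (chr14:32599407-32649246, GRCm38). It was at 239, 65.4, 54.4 and 260.1 CPM in members at E16.5 and 99.3 and 214 CPM at P0.5. The other wells lay between 1.04 and 8.61 CPM, with no overlap (log2 fold change 5.25, SE 0.39, edgeR adjusted p = 2.58e-08). Its counts came from 17 of 62 members. The gene was not limited to members: after thinning to 4000 counts it was found in 16.7% of members (10 of 60) and 7.01% of the other wells with at least 3 Tcf7l2 counts (11 of 157), which were 11 of the 13 thinned wells outside the rule that held it.

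Six3, a homeodomain factor of the forebrain and of nigral GABA neurons (chr17:85613608-85629302), was high in most of them, with over 5 counts in 49 of 62, 1 to 5 counts in 8 and 0 in 5. It was at 1571, 1011, 1606 and 1696 CPM in members at E16.5 and 837 and 1388 CPM at P0.5. The other wells reached 253 to 556 CPM, so each member sum exceeded every sum of other wells (log2 fold change 1.87, SE 0.15, edgeR adjusted p = 6.96e-08). The Six3 locus also holds the antisense gene Six3os1, which was called too, at a log2 fold change of 0.95 (SE 0.22, edgeR adjusted p = 0.0127), higher on 4 of 6 plates. That call was lost with DESeq2 (adjusted p = 0.0531) and without E16.5 replicate 3 or 4 (edgeR adjusted p = 0.159 and 0.124), and without a statement on strand the reads of the pair cannot be told apart.

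Lmo4, a LIM-only protein related to Lmo1 (chr3:144188530-144205220), was at 771, 785, 445 and 1228 CPM in E16.5 members and 908 and 763 CPM in P0.5 members. Other wells had 131 to 229 CPM (log2 fold change 2.09, SE 0.16, edgeR adjusted p = 5.94e-08). The other genes with the largest rises were Vwc2 and Nog, which encode secreted antagonists of bone morphogenetic proteins, Islr2, a transmembrane protein of growing axons, Mef2c, a MADS-box factor, Dpyd, an enzyme of pyrimidine breakdown, Cpne2, Mpped1, Vstm2b and Sox1ot. Their log2 fold changes ran from 1.63 for Vstm2b to 2.44 for Vwc2, with edgeR adjusted p from 7.68e-07 for Dpyd to 0.014 for Nog, and each was higher on 6 of 6 plates. Nog rested on 27 counts and lost its call without E16.5 replicate 1, 3 or 4 (edgeR adjusted p = 0.0557, 0.0582 and 0.115). Sox1ot is annotated across Sox1 on the same strand, so their reads are uncertain, and Sox1 itself rose with a log2 fold change of 1.78 (SE 0.31, edgeR adjusted p = 0.00065), on 5 of 6 plates.

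**Figure D2:**
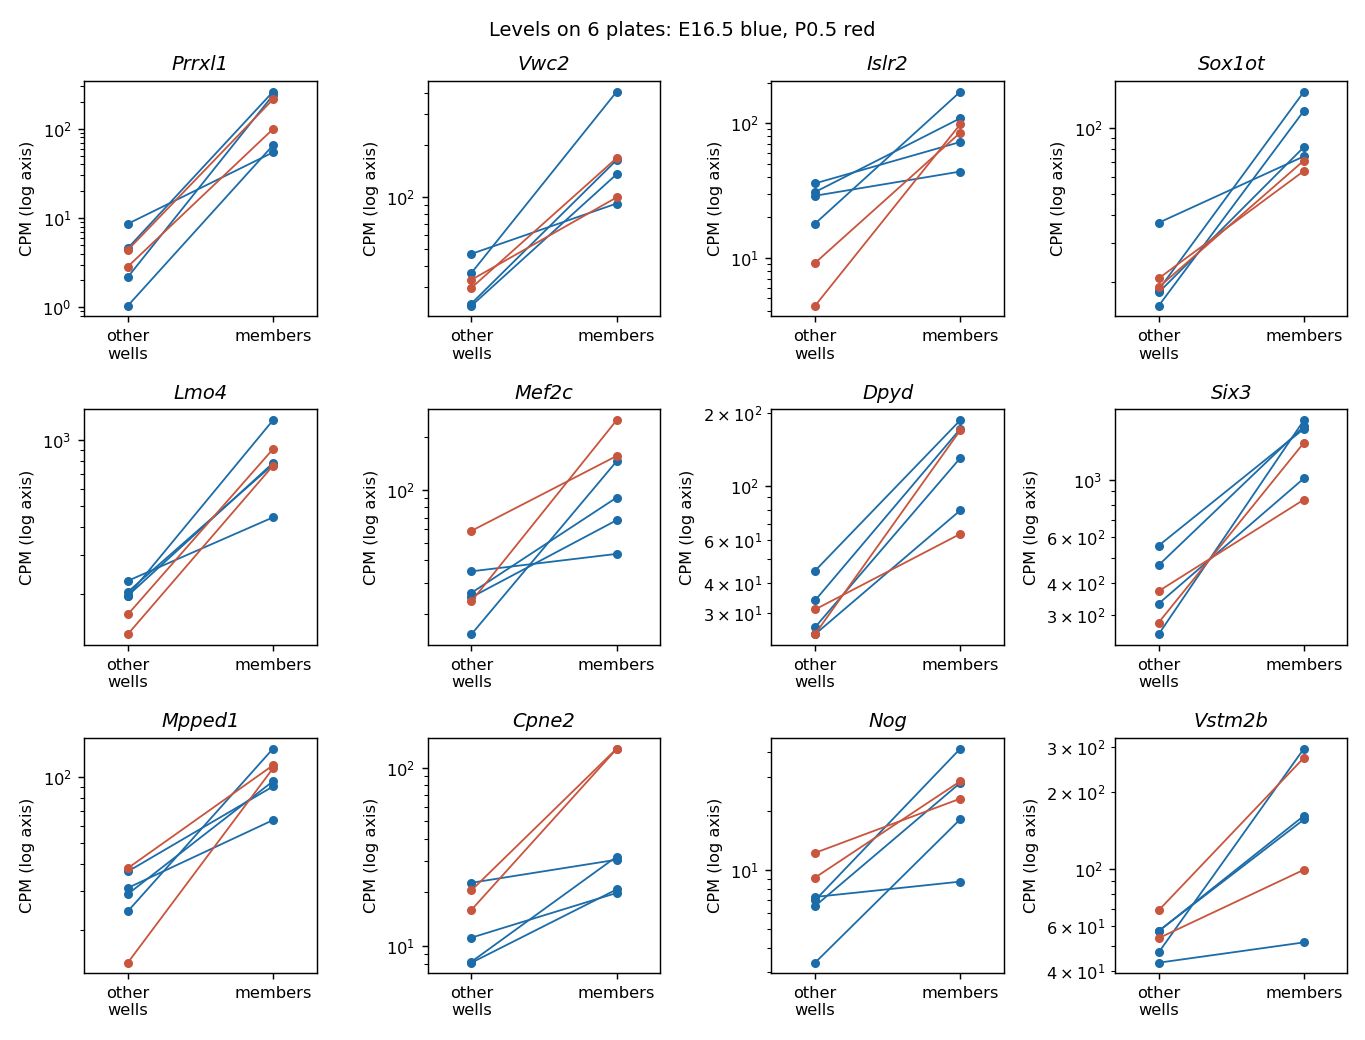
Levels (CPM, log axis) of the 12 genes with the largest rise in members, as sums of other wells and of members on the same plate, joined by a line for each of 6 plates (E16.5 blue, P0.5 red). All lines rise, and Prrxl1 has the widest gap, from 1.04 to 8.61 CPM in other wells to 54.4 to 260.1 CPM in members.

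In these 12 genes, promoter letters of the factors in the rule were looked up, as a description of sequence only. RefSeq promoters of GRCm38.p6, from 250 bases before to 50 after each start, were found for 11 of the 12. The core motif of TCF/LEF factors, CTTTGA, stood on either strand in promoters of 4 genes (36.4%), Dpyd, Islr2, Mef2c and Mpped1, against 13.7% of 7627 tested genes with a promoter and 18.2% of all 27025 genes. Over all 105 higher genes, 79 had a promoter and 13 held the motif. By gene, the motif was as frequent among genes that fell, in 3 of 8 (37.5%) of the 12 with the largest falls and in 41 of 247 (16.6%) of all lower genes. By promoter, it stood in 4 of 18 (22.2%) for the largest rises and 5 of 35 (14.3%) for the largest falls, beside 11.2% of tested promoters. Over all called genes it stood in 11.8% of promoters of higher and 11.7% of lower genes, so there it did not set the higher genes apart. A match is not a site of binding. The stretches around these motifs follow 5′ to 3′ on the strand of each gene, with the motif in capitals (TCAAAG is CTTTGA on the opposite strand).
Dpyd, chr3:118561930-118561952, plus strand: gaacaTCAAAGacgcaattgttt
Islr2, chr9:58204454-58204483, minus strand: gttcctttaagaTCAAAGacgtagggcagg
Mef2c, chr13:83573629-83573656, plus strand: tgctcccatataCTTTGActtgagattc
Mpped1, chr15:83784764-83784793, plus strand: tctctgcctgggCTTTGAggcttctgccca
The OTX motif TAATCC stood in promoters of 0 of these 11 genes and 0 of the 79 higher genes, against 6.52% of tested genes, which says only that these letters are not in these windows.

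Lower genes in members included some that were not counted at all. Neurod6, a basic helix-loop-helix factor (chr6:55677822-55681263), had 0 counts on all 6 plates against 11.3 to 57.3 CPM in the other wells, at least 12.6-fold lower when set against 3 counts over all members. Zfp503, a zinc finger protein, also had 0 counts against 19.1 to 39.8 CPM, at least 9.76-fold lower. Thrb, the thyroid hormone receptor beta, had 1 count (ratio of members to others 0.0426, 95% counting interval 0.00108 to 0.238), Parm1 had 2 (0.062, 0.00749 to 0.225), Ecel1 3 (0.112, 0.023 to 0.328) and 9030622O22Rik 3 (0.0319, 0.00658 to 0.0935). The last of these is a long noncoding RNA (chr2:147944740-148040203) next to Foxa2 (chr2:148042877-148046969), at which members were 0 by rule.

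Ebf1, a helix-loop-helix factor, was at 23.9, 13.1, 4.54 and 0 CPM in members at E16.5 and 0 and 5.78 CPM at P0.5, below the 102 to 297 CPM of other wells on every plate (log2 fold change -4.39, SE 0.31, edgeR adjusted p = 2.26e-08). Against other wells that also had 0 Foxa2 counts the log2 fold change of Ebf1 was -2.77 (edgeR adjusted p = 1.59e-05), and Neurod6 and 9030622O22Rik were then too low to be tested. The falls of Ebf1, Neurod6 and 9030622O22Rik are thus not independent of the Foxa2 criterion of the rule. Il1rapl2, a synaptic adhesion protein, fell by 4.69 on the log2 scale, Fam19a1, a secreted protein, by 3.08, Kcnk9, a leak potassium channel, by 3.50, Necab1, a calcium-binding protein, by 3.31 and Mcc by 3.13, each lower on 6 of 6 plates with edgeR adjusted p between 1.15e-07 and 0.000243. Il1rapl2, Necab1 and Kcnk9 rested on 4 counts each, and Mcc on 6. For Mcc the direction turned when members were chosen on counts thinned to one depth (log2 fold change 0.20, edgeR adjusted p = 0.885), and Necab1 then lost its call (-1.29, edgeR adjusted p = 0.148), as did Parm1 and Ecel1 (0.0656 and 0.061).

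**Figure D3:**
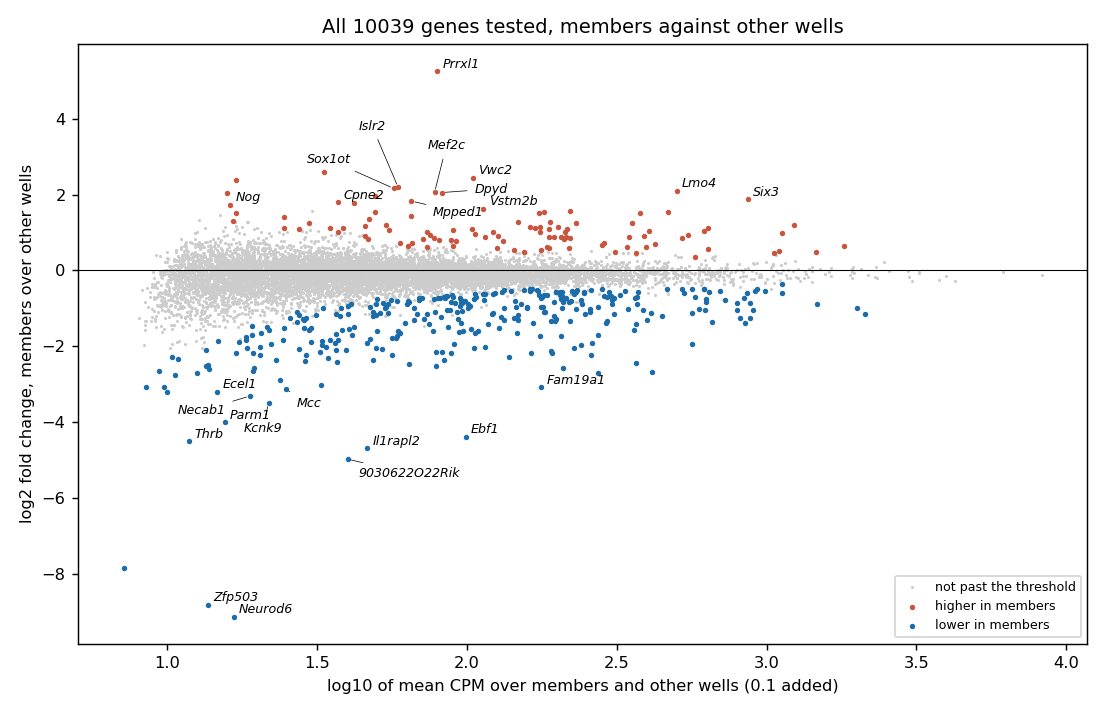
Log2 fold change of members over other wells (vertical) against the mean level (horizontal, log10 CPM with 0.1 added) for 10039 genes, with 105 called higher in red and 319 called lower in blue. Prrxl1 stands highest at 5.25, and the values of Neurod6 and Zfp503, at 0 counts in members, depend on the prior count of the fit and are not estimates of a fold.

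Among the selector genes of midbrain GABA neurons, the members had more of some and less of others. Of 13 listed genes 9 were tested, 4 rose and 2 fell, where 1.05% of all genes rose and 3.18% fell, and the median log2 fold change was 0.32 beside -0.10 for all genes. Gata2 was at 143, 275, 322, 276, 199 and 318 CPM in members against 147, 63.9, 72.3, 67.4, 64 and 141 CPM in other wells, higher on 5 of 6 plates (log2 fold change 1.52, SE 0.21, edgeR adjusted p = 6.2e-05). Lhx1, a LIM-homeodomain factor, was at 314, 187, 281, 328, 128 and 301 CPM against 62.3 to 156 CPM, higher on all plates (1.09, SE 0.12, edgeR adjusted p = 4.31e-06). Sox14, an SRY-box factor, fell (-1.82, SE 0.33, edgeR adjusted p = 0.00122), at 0 to 59.6 CPM in members against 53.1 to 108 CPM. That call was lost with the rule on thinned counts (-0.68, edgeR adjusted p = 0.402). Gata3 was lower on 5 of 6 plates (-0.49, SE 0.13, edgeR adjusted p = 0.0266), a call that RLE scaling (edgeR adjusted p = 0.131) and the absence of E16.5 replicate 1, 3 or 4 or of P0.5 replicate 3 removed (0.0772 to 0.142).

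The levels of LIM-domain partners moved in different directions. Of 17 listed genes 7 were tested, 3 were higher (Lmo4, Lhx1 and Ldb2) and 1 lower, beside 1.05% and 3.18% of all genes, and the median log2 fold change was 0.72 beside -0.10. Ldb2, an adaptor that binds LIM domains, was at 346, 235, 313, 291, 199 and 312 CPM against 101 to 182 CPM (log2 fold change 1.01, SE 0.14, edgeR adjusted p = 4.23e-05). Lmo3 was at 91.5 to 182 CPM in members and 174 to 301 CPM in other wells (-1.11, SE 0.15, edgeR adjusted p = 5.5e-05), lower on 6 of 6 plates, so that Lmo3 and Lmo4 differed in opposite directions.

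Tcf7l2 being a Wnt effector, 56 genes of the TCF/LEF family and Wnt pathway were examined, of which 27 could be tested. None rose and 2 of the 27 fell in the edgeR fit, where 3.18% of all genes fell, and both calls were fragile: Tle1, a Groucho corepressor (log2 fold change -1.31, SE 0.31, adjusted p = 0.0147), and Ctnnd2, a catenin of synapses (-0.49, SE 0.12, adjusted p = 0.0143). Both calls were lost with DESeq2 (adjusted p = 0.0733 and 0.176) and without E16.5 replicate 1 or 4, and that of Tle1 also without replicate 2 (edgeR adjusted p from 0.0512 to 0.0953). The median of the list was -0.16. Of the 19 KCTD genes 15 were tested, and Kctd8 rose by 0.86 (SE 0.22) while Kctd16, like Kctd8 an auxiliary subunit of GABA-B receptors, fell by 1.62 (SE 0.29) on the log2 scale (edgeR adjusted p = 0.0222 and 0.000883). The Kctd8 call was lost without E16.5 replicate 3 or 4 (edgeR adjusted p = 0.223 and 0.206), with spliced counts (0.59, edgeR adjusted p = 0.372) and with DESeq2 (adjusted p = 0.0751).

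Of 40 patterning genes 24 were tested, 5 rose and 6 fell, beside 1.05% and 3.18% of all genes, with a median log2 fold change of -0.92 against -0.10 for all genes. Besides Ebf1, Meis2, a TALE homeodomain factor, was lower on every plate. Its levels were 354 and 259 CPM in members of E16.5 replicates 1 and 3 and 15.6 to 28.9 CPM in the other 4 member sums, against 424 to 997 CPM (log2 fold change -2.69, SE 0.37, edgeR adjusted p = 5.04e-05). Zfhx3, a zinc finger homeodomain factor, was at 46.3 to 481 CPM against 603 to 1103 CPM (-1.95, SE 0.21, edgeR adjusted p = 1.99e-06). Tshz3 rose (1.95, SE 0.34, edgeR adjusted p = 0.000644), on 5 of 6 plates, and the rise of Tshz2 (0.50) was lost without E16.5 replicate 2 or 4 or P0.5 replicate 3 (0.0754 to 0.164). Among the SRY-box genes Sox1 and Sox5 rose and Sox21 and Sox14 fell, and Sox5 was at 197 to 526 CPM against 38.9 to 151 CPM (1.56, SE 0.16, edgeR adjusted p = 1.18e-06).

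Against all other wells together, markers of other GABAergic groups of this tissue were lower or mixed. Their counts stand beside the 1.05% of all genes called higher and 3.18% called lower. Of the Six3 group's markers, Six3 and Six3os1 rose, and Foxp2, a forkhead factor, and Uncx, a homeodomain factor, fell (-1.72, SE 0.33, edgeR adjusted p = 0.00201, and -1.71, SE 0.33, edgeR adjusted p = 0.00214). Foxp2 differed between plates, at 123, 95.9, 27.2 and 78 CPM in E16.5 members, 383 CPM in P0.5 replicate 2, above the 256 CPM of the other wells there, and 0 in P0.5 replicate 3. Its call was lost with DESeq2 (adjusted p = 0.134) and with the rule on thinned counts (-1.19, edgeR adjusted p = 0.0715). Pooled over wells, Foxp2 was at 87.1 CPM in members and 82.9 CPM in the other wells with at least 3 Tcf7l2 counts. It was at 157 CPM in other wells with Otx2, Lmo1 or Kctd4 and with Foxa2, and at 572 CPM in other wells with at least 3 Six3 counts. Of the Pax5 group's 6 markers 5 were tested and 3 fell, among them Pax5, a paired-box factor (-2.17, SE 0.38, edgeR adjusted p = 0.000787), and Sox21 (-1.83, SE 0.30, edgeR adjusted p = 0.000319), both lower on 6 of 6 plates. Pooled over wells, Pax5 was at 37.9 CPM in members, 25.1 in the other Tcf7l2 wells, 23.2 in the other Six3 wells and 52.1 in those with Foxa2. Its low level was thus shared with the Tcf7l2 and Six3 wells. Nkx2-2, a homeodomain factor that heads the midbrain reticular list, was at 282, 323, 299, 323, 184 and 185 CPM in members and 48.9 to 166 CPM in other wells (1.54, SE 0.14, edgeR adjusted p = 4.49e-07). The remainder of that list did not rise, and Chrm2, a muscarinic receptor, fell (-1.60, SE 0.26, edgeR adjusted p = 0.000295), a call lost with spliced counts (-1.03, edgeR adjusted p = 0.136). Among dopamine neuron genes 5 of 13 could be tested and En1, En2 and Ddc fell, while for hypothalamic, hindbrain and interpeduncular lists 4 of 18 genes were tested, with Dlx1 and Lamp5 lower. The call of Ddc was lost without E16.5 replicate 1, 3 or 4 (edgeR adjusted p from 0.0785 to 0.137), as was that of Dlx1 (0.0741 to 0.0775).

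Genes of GABA synthesis and transport did not pass the test, with 6 of 6 tested and a median log2 fold change of -0.11. Slc32a1 was at 243, 222, 154, 140.5, 70.9 and 295 CPM in members against 168 to 333 CPM in other wells, and Gad1 at 553 to 1500 CPM against 796 to 1274 CPM. Of 23 tested glutamate receptor subunits 3 rose and 3 fell, beside 1.05% and 3.18% of all genes. Among those that rose, Grik3, a kainate receptor subunit, was at 150.3 to 328 CPM against 42.6 to 139 CPM (1.15, SE 0.14, edgeR adjusted p = 1.26e-05).

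Among ion channel and adhesion genes some were called, which is to be read against the 1.05% of all genes called higher and 3.18% called lower. Of 33 tested potassium channel genes 1 rose and 4 fell, of which Kcna6 and Kcnc4 lost their calls with RLE scaling (edgeR adjusted p = 0.0997 and 0.0558). Kcna6 was also lost when any plate but P0.5 replicate 3 was left out (0.0741 to 0.126), and Kcnc4 without E16.5 replicate 3 or 4 or either P0.5 plate (0.0544 to 0.108). The riser was Kcnh7, of the ether-a-go-go-related family, at 759.5, 772, 1257, 1217, 355 and 688 CPM against 283 to 511 CPM (1.04, SE 0.12, edgeR adjusted p = 5.11e-06). Of 26 tested sodium, calcium and HCN channel genes 1 rose (Cacna2d3) and 2 fell, Scn9a and Cacnb2, whose calls were lost without E16.5 replicate 4 (edgeR adjusted p = 0.0729 and 0.0825) and, for Scn9a, without E16.5 replicate 1 or P0.5 replicate 3, for Cacnb2 without E16.5 replicate 2. Cadherins and protocadherins held 2 higher and 8 lower genes of 26, of which Cdh9 was lost without E16.5 replicate 3 or 4 or P0.5 replicate 2 (edgeR adjusted p from 0.0916 to 0.149). Pcdh11x was at 17.3 to 191 CPM against 220.3 to 592 CPM (-2.58, SE 0.22, edgeR adjusted p = 1.15e-07). Of 52 tested axon guidance genes 3 rose and 10 fell, and the rise of Robo2 (0.46) was lost when any plate but E16.5 replicate 3 was left out (edgeR adjusted p from 0.0508 to 0.144). Those with the largest falls were Epha4, Sema3a, Epha3 and Sema5a, of which Sema3a rested on 4 counts and was lost when any plate other than E16.5 replicate 3 was left out (edgeR adjusted p from 0.0982 to 0.153). Epha3, an ephrin receptor, was at 10.4 to 51.7 CPM against 84 to 185 CPM (-2.16, SE 0.24, edgeR adjusted p = 2.95e-06). The neuropeptide list, of which 7 genes were tested, also holds the neurexophilin gene Nxph1, which is not a neuropeptide precursor. Pnoc, the nociceptin precursor, rose (0.88, SE 0.15, edgeR adjusted p = 0.000789) and Sst and Nxph1 fell. Both falls were lost without E16.5 replicate 4 (edgeR adjusted p = 0.115 and 0.0901). Nxph1 was also lost without either P0.5 plate, with RLE scaling (0.0604) and against wells without Foxa2 (0.201). With the rule on thinned counts Sst was at -0.20 (edgeR adjusted p = 0.773). Calcium-binding proteins held 1 higher and 3 lower genes of 9. The higher one, Hpcal4 (0.72), was lost when any plate but P0.5 replicate 2 was left out (edgeR adjusted p from 0.0511 to 0.284). Lower genes included Calb2, or calretinin (-2.06, SE 0.35, edgeR adjusted p = 0.000596). Of 9 pan-neuronal genes Syt1 and Elavl4 fell, by 0.59 and 0.49 on the log2 scale. Both calls were lost with DESeq2 (adjusted p = 0.0642 and 0.12), and Elavl4 also with RLE scaling (edgeR adjusted p = 0.0784) and without E16.5 replicate 1, 3 or 4 or P0.5 replicate 3 (0.0528 to 0.0574).

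Detection was also compared after each well had been thinned to 4000 counts, which left 60 members. On the mean of 6 plates, Six3 was found in 86.5% ± 14.7 (SD) of members and 36.4% ± 13.0 of other wells, Tal1 in 65.8% ± 17.9 and 44.3% ± 3.37, and Lhx1 in 53.1% ± 14.3 and 28% ± 5.64, each higher on 6 of 6 plates. Pooled over plates, Tal1 was in 65.0% of members and 56.3% of other wells with Otx2, Lmo1 or Kctd4 and with Foxa2. Its unthinned levels there were 217 and 231 CPM. In the other Tcf7l2 wells and the other Six3 wells it was in 50.3% and 49.3%. Sox14 (4.80% against 17.3%), Pax5 (1.28% against 16.6%), Otx1 (6.61% against 16.6%) and Dlx1 (3.33% against 8.04%) were lower on 6 of 6. Slc1a3, which neurons should lack, was found in 2.38% of members and 1.67% of other wells (the order turned at 8000 counts and without P0.5 replicate 2), a level near that of Pax5 and Dlx1 in members. Six3, Tal1, Lhx1, Sox14, Pax5, Otx1 and Dlx1 reached the smallest p that an exact sign-flip permutation test on 6 plates can give (0.0313), and after adjustment over 18 genes p was 0.0804, so that 0 of 18 passed. A gene at that smallest p passes the adjustment only when most of the 18 reach it too. The outcome was thus largely set by the number of plates. Nkx2-2 (48.5% against 19.7%) and Gata2 (44.6% against 20.9%) were higher on 5 of 6 plates, and both had an exact sign-flip p of 0.0625, or 0.125 when adjusted.

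Members were then compared with the 3 sets of other wells most like them. The wells with at least 3 Tcf7l2 counts that were not members numbered 159, those with Otx2, Lmo1 or Kctd4 at a sum of at least 3 and with Foxa2 numbered 153, and those with at least 3 Six3 counts numbered 425. The sets share wells with each other, 10 between the Tcf7l2 and Foxa2 sets, 74 between Tcf7l2 and Six3 and 68 between Foxa2 and Six3.

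Against the other Tcf7l2 wells, 148 of 5157 genes were called (2.87%), 61 higher and 87 lower. Bcl11b, a zinc finger factor also called Ctip2, was at 548 ± 269 CPM (SD, n = 6 plates) in members and 112 ± 76.1 CPM in these wells (log2 fold change 2.31, SE 0.24, edgeR adjusted p = 0.000243). Prrxl1 was at 158 ± 93.9 CPM against 34.6 ± 29.0 CPM, higher on 5 of 6 plates (2.52, SE 0.52, edgeR adjusted p = 0.0125). Zeb2, Vwc2 and Lmo4 were higher by 2.24 to 2.43 on the log2 scale (edgeR adjusted p from 0.000834 to 0.00511). Otx2os1 was higher too, but it overlaps Otx2, which the rule used. Erbb4, the neuregulin receptor, had the largest fall, at 80.5 ± 56.4 CPM against 588 ± 229.9 CPM (-2.93, SE 0.38, edgeR adjusted p = 0.000595), followed by Zfhx3, Alcam, Cdh8 and Pcdh11x. The Tcf7l2 wells outside the rule thus had less Bcl11b and Lmo4 and more Erbb4 and Zfhx3.

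Against the wells with Foxa2, 458 of 5163 genes were called (8.87%), 162 higher and 296 lower. Prrxl1 was at 159 ± 95.3 CPM in members and 0.447 ± 0.695 CPM in these wells, where it rested on 2 counts, and Sox1ot, Sox2ot, Dpyd and Vstm2b were higher by 3.17 to 4.28 on the log2 scale. Sox2ot spans the label marker Sox2, so their reads are uncertain. Ebf1 was at 7.98 ± 9.27 CPM against 1053 ± 189.8 CPM (log2 fold change -6.73, SE 0.29, edgeR adjusted p = 6.22e-10). Neurod6, at 0 counts in members against 219.7 ± 96.5 CPM, was at least 83.8-fold lower, and 9030622O22Rik, Kcnk9 and Igf1 were lower as well. These wells were chosen for Foxa2, which the rule set to 0 in members. Falls in genes found with Foxa2 are therefore not independent of the rule. On the 6 plates these wells held 637 of the 812 Neurod6 counts of all other wells and 1534 of 2010 for 9030622O22Rik. For Ebf1 they held 2981 of 4657 and for Kcnk9 551 of 919.

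Against the other Six3 wells, 520 of 7596 genes were called (6.85%), 84 higher and 436 lower, with Six3 itself left out. With RLE scaling there were 139 higher and 205 lower, and without E16.5 replicate 4 the total was 266. Prrxl1 (152 ± 89.7 against 10.3 ± 8.31 CPM) and Bcl11b (527 ± 256 against 83.3 ± 41.7 CPM) led the rises, with log2 fold changes of 3.89 (SE 0.43, edgeR adjusted p = 7.21e-06) and 2.68 (SE 0.21, edgeR adjusted p = 2.79e-07). Vwc2, Dpyd and Sox1ot followed at 2.20 to 2.32. Ebf1, Il1rapl2, Mcc and Kcnk9 fell by 3.15 to 4.48 (edgeR adjusted p from 1.12e-07 to 0.00296), and 9030622O22Rik had 3 counts in members (ratio 0.0421, 95% counting interval 0.00865 to 0.124).

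**Figure D4:**
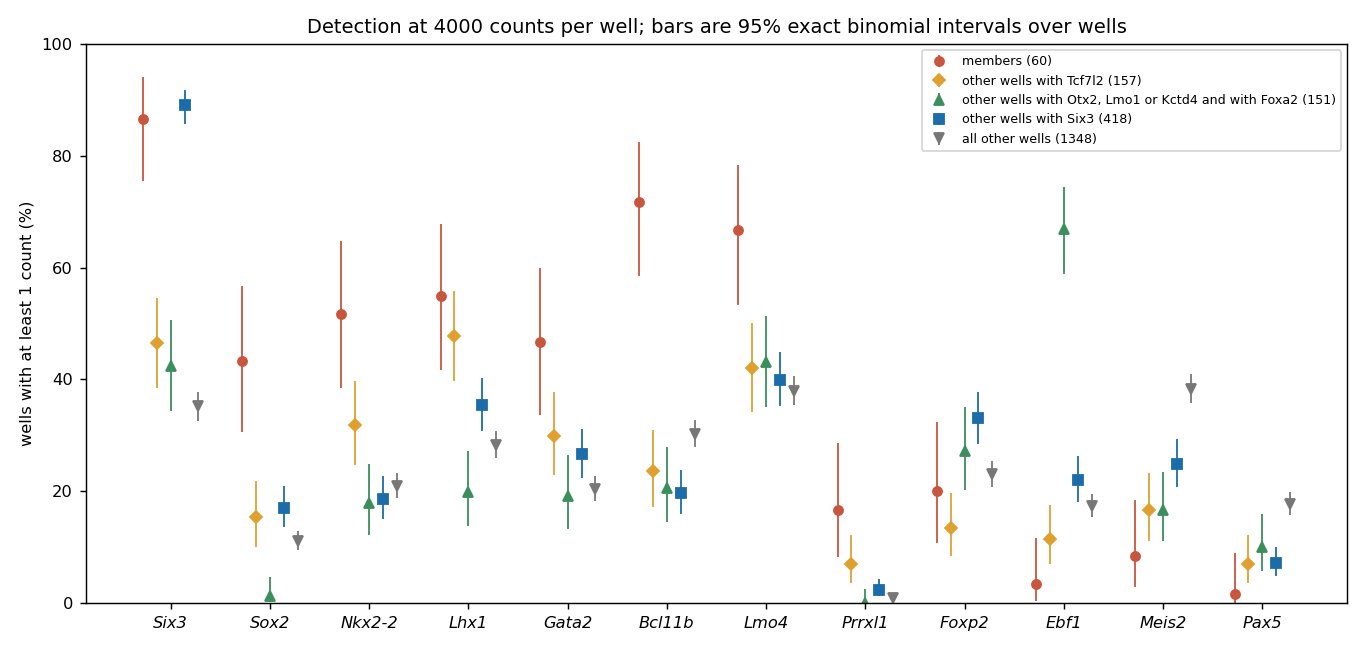
Share of wells with at least 1 count of 12 genes (vertical, percent) after thinning to 4000 counts, pooled over plates, in members, in the 3 like sets and in all other wells, with the number of thinned wells in the legend and 95% exact binomial intervals over wells (counting error only). Bcl11b was found in 71.7% of members and 19.6% to 30.3% of the other sets, and Ebf1 in 3.33% of members and 66.9% of the wells with Foxa2.

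The members were not uniform. In a space of 40 principal components of 2000 variable genes, computed without the rule and label genes, 66.0% of the 15 nearest neighbours of a member were members on average, against 1.36% for other wells, and 53 members had at least 1 member among them. The 9 without one stood on E16.5 replicates 1 (2), 2 (4) and 3 (2) and P0.5 replicate 2 (1). They had a median of 6 Tcf7l2 counts, against 50 in the other 53, with Six3 at 43.0 CPM against 1759 CPM, Meis2 at 683 CPM against 22.1 CPM and Pax5 at 205 CPM against 1.05 CPM. These are pooled levels, and those of Meis2 and Pax5 rest on few wells. Meis2 was found in 6 of the 9 with a median of 1 count. Pax5 was found in 3 of the 9, and 1 well held 38 of the 44 Pax5 counts of all members. The split follows from these same cells and, Tcf7l2 apart, from genes open to the space, so it is a description with no test. The 36 members with Kctd4 and the 26 without had median depths of 16673.5 and 18109.5 counts. Sox2 was found in 27 of the 36 and 8 of the 26, Gata2 in 28 and 12, Bcl11b in 34 and 17, and Prrxl1 in 6 and 11.

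Between E16.5 and P0.5 few genes of the members could be told apart. With 45 members on 4 plates against 16 on 2, 2 of 5939 genes passed in edgeR (0.0337%), while 647 had an unadjusted p under 0.05. Thy1, a surface glycoprotein of maturing neurons, was at 11.9, 34.9, 9.07 and 10.4 CPM in members of E16.5 replicates 1 to 4 and 213 and 197 CPM in P0.5 replicates 2 and 3, with no overlap (log2 fold change 3.57, SE 0.45, adjusted p = 0.00158). In the other wells it rose too (2.38, SE 0.39, edgeR adjusted p = 0.0171). Cd24a, a surface glycoprotein of immature neurons, was at 545, 510.0, 681 and 588 CPM at E16.5 and 199 and 127 CPM at P0.5 (-1.88, SE 0.32, edgeR adjusted p = 0.0425), and in the other wells its log2 fold change was -0.93 (SE 0.26, edgeR adjusted p = 0.0572). With the replicate number as a block neither passed (edgeR adjusted p = 0.243 and 0.415), and Cd24a was also lost when E16.5 replicate 1 or 3 or either P0.5 plate was left out.

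The stage change itself differed between members and other wells for 1 of 11641 genes (0.00859%) in the edgeR interaction test, with 616 at an unadjusted p under 0.05 and 0 called by DESeq2. Casz1, a zinc finger factor, was at 59.6, 69.7, 49.9 and 88.4 CPM in E16.5 members and 14.2 and 5.78 CPM at P0.5, where each plate had 1 count. Other wells had 16.8 to 23.0 CPM at E16.5 and 28 and 65.8 CPM at P0.5 (difference of log2 fold changes -4.37, SE 0.76, edgeR adjusted p = 0.0413). On P0.5 replicate 2 the members' 60834 counts put 3 counts at 49.3 CPM, so a low gene is not resolved there. Without P0.5 replicate 3 the difference was -2.76 (edgeR adjusted p = 0.801). The Casz1 call was also lost with the rule on thinned counts and with the plate block taken out. For Thy1 and Cd24a the stage changes in members and others did not differ past the threshold (edgeR adjusted p = 0.799 for both).

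**Figure D5:**
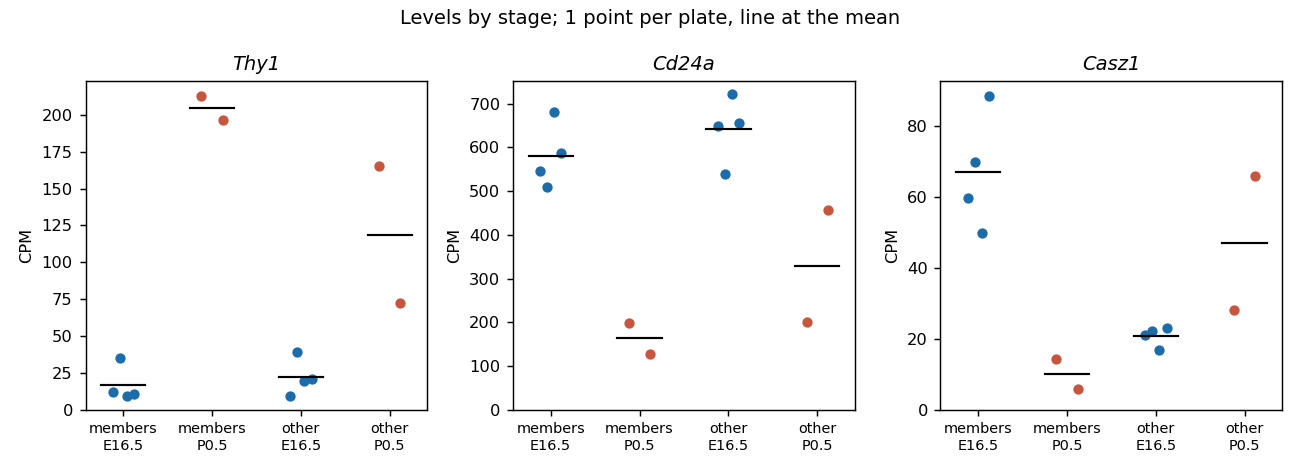
Levels of Thy1, Cd24a and Casz1 (CPM) in members and other wells at E16.5 (4 plates, blue) and P0.5 (2 plates, red), with 1 point per plate and a line at the mean. Thy1 and Cd24a shift the same way in members and other wells, and Casz1 is at 5.78 and 14.2 CPM in members at P0.5, below their E16.5 plates.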

How the data were processed

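Values as deposited are expected counts. The authors aligned SORT-seq reads with STAR (named in the submitters' processing notes, build mm10) and counted distinct molecular barcodes of exonic and intronic reads per gene and well, without scaling; 54.7% of non-zero values were not whole. Counts were rounded per well for the rule and after summing for tests. Strandedness is not given in the sources used here. Kept wells had at least 2000 genes, at most 50000 counts and under 15% mitochondrial counts, with 92 ERCC rows left out. No doublet caller was run. Members and lists were chosen with earlier results of these data known, and the rule genes, Nr2f2 and Sox2 entered no test.

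On plates with at least 5 members (60834 to 245639 member counts), sums were compared by quasi-likelihood in edgeR 4.0.16 (R 4.3.3) after filterByExpr and TMM, with Benjamini-Hochberg adjustment and a threshold of 0.05, a procedure checked on simulated data. Alternatives were DESeq2 1.42.0, RLE scaling, all genes unfiltered, exonic (spliced) counts, other rules for members and wells, and each plate left out. Neighbours came from scanpy 1.11.5 (Python 3.11.15). Named genes were, in each direction, the 12 past the threshold (5 for each like set) that changed most, one way on every plate and with at least 20 CPM in the higher group. For stage they were the called genes whose plates do not overlap. From each list, up to 4 called genes and genes that define it were named. Genes named beyond this (Casz1, the only gene called in the interaction, and other called list genes) were chosen after their values were seen. Coordinates are from GENCODE vM21 (GRCm38). Intervals and limits cover counting error only. Intronic counts alone are not used here. Results for a few list genes are not reported here.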

Additional observations from a re-analysis of the deposited data

Results flagged for a closer look

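Among 56 values looked at over the 4 E16.5 plates, 9 had a plate set apart from the others by Dixon's criterion, where chance gives about 1 in 20. All 9 rest on few wells or counts. Slc17a6 in members was at 35.8 CPM on replicate 1, from 9 counts in 1 well, and 0 on the others. Thrb was at 3.98 CPM on replicate 1, from 1 count. Kcnk9 was at 17.4 CPM on replicate 2. Thy1 was at 34.9 CPM on replicate 2, from 8 counts. 9030622O22Rik was at 0 CPM on replicate 4. Of thinned members, 7.69% had Pax5 on replicate 3, 20% had Dlx1 on replicate 2 and 11.1% each had Slc17a6 and Foxa1 on replicate 1, with 0 on the other E16.5 plates.

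The stage change of Casz1 differed between members and other wells (difference of log2 fold changes -4.37, edgeR adjusted p = 0.0413), over 59 counts in E16.5 members and 2 in members of the P0.5 plates tested.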

How the results depend on the processing

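Counts of genes called moved with the processing. Against all other wells, 424 genes became 238 when the replicate block (the plate) was taken out, and 290 to 404 with a plate left out. For stage in members, 2 became 21 with DESeq2, 6 with RLE scaling, 103 without a filter on low counts, 10 with spliced counts, 3 with at least 5 Tcf7l2 counts or in wells of at least 8000 counts, 12 with the rule on thinned counts, 1 over plates with at least 1 member, 0 with the replicate number as a replicate block (360 at an unadjusted p under 0.05), and 1 to 27 with a plate left out. For the interaction, 1 became 0 with DESeq2 or no replicate block, 18 without a filter, 8 with spliced counts or in wells of at least 8000 counts, 4 with at least 5 Tcf7l2 counts or plates with at least 1 member, and 2 to 8 with a plate left out. Against Tcf7l2 wells, 148 became 346 without a filter, 75 with no replicate block and 102 to 147 with a plate left out; against Foxa2 wells, 458 became 783 without a filter and 358 to 447; against Six3 wells, 520 became 282 with DESeq2, 344 with RLE, 278 with no replicate block, 266 without E16.5 replicate 4, 325 without P0.5 replicate 3, and 266 to 471 over all plates left out. The cause was not tested. The share of members by stage differed by -1.46 to -0.254 points with a plate left out and by -1.77 to -0.61 under the other settings. Of 18 thinned shares 0 passed in the 4 settings with 6 plates, while those with 5 plates (a plate left out, or 8000 counts) could not pass, their smallest exact p being 0.0625. Of the 18 differences in thinned shares, 8 turned sign under some setting, in percentage points: Foxp2 without thinning (4.97) and with a plate left out (-6.82 to 0.648), Slc32a1 at 8000 counts (2.80), Gad2 at 8000 counts (2.32), without thinning (1.80) and at 2 counts (0.632), Gata3 at 2 counts (-11.7), against wells without Foxa2 (-0.615) and with a plate left out (-5.08 to 4.49, with -2.14 and -0.435 without E16.5 replicates 3 and 4), Pax7 without thinning (0.681) and with a plate left out (-3.34 to 1.54), Slc17a6 without thinning (-0.953), against wells without Foxa2 (-0.168) and with a plate left out (-1.37 to 0.715), Slc1a3 at 8000 counts (-1.23) and with a plate left out (-1.04 to 1.31), and Foxa1 against wells without Foxa2 (0.907). Mcc turned to a log2 fold change of 0.20 with the rule on thinned counts. Same-numbered plates deviated with correlations of 0.0184 and 0.0295 over 2 pairs. The deviations of the 2 P0.5 plates from their mean mirror each other, so the correlations are not separate checks. They cannot show whether the numbers pair stages. Of 1402 alternative values of named genes against all other wells, 1223 kept their side of the threshold, 178 did not pass and 1 turned direction. Besides the losses given beside each gene, calls were lost with DESeq2 for Cacnb2, Cdh9, Ddc, Gata3, Kcna6, Kcnc4, Nxph1, Scn9a, Sema3a and Sst, with RLE scaling for Cacnb2, Cdh9, Ctnnd2, Scn9a and Sema3a, with the rule on thinned counts for Cacnb2, Hpcal4, Kcna6, Nxph1, Robo2 and Sema3a, with spliced counts for Cacnb2, Hpcal4, Nxph1, Robo2, Scn9a, Tle1 and Tshz2, and in wells of at least 8000 counts for Cdh9, Dlx1, Kcna6, Kcnc4, Nog, Nxph1, Robo2, Sema3a and Tshz2.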
